A study of Mus musculus with 24 samples.

Results

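The 10 genes described here make, use or methylate the precursors of NAD+ or consume NAD+ itself. They were chosen by name, with no threshold on a measured value, as *Nampt*, *Nmnat1*, *Nmnat3*, *Naprt*, *Nmrk1*, *Nnmt*, *Sirt1*, *Sirt3*, *Sirt6* and *Parp1*, and they are 10 of the 54733 genes listed for each library. All 10 had a mean of at least 1 FPKM (fragments scaled by transcript length and by the library's total) and so were among the 11244 genes tested. The tissue was liver of male mice on a C57BL/6 background. WT mice were compared with ΔRRE mice, homozygous for a CRISPR-Cas9 deletion of both ROR response elements (RREs) upstream of *Bmal1*, which is listed under its other symbol, *Arntl*. The deletion is present in every cell of the body, and 1 mutant line was the one used by default in the study. The protocol for these libraries gives neither age nor lighting. The study's liver collections for tissue RNA and for proteomics were from males, taken after the start of constant darkness. Livers were taken at circadian times CT2, CT6, CT10, CT14, CT18 and CT22, with 2 libraries per genotype and time point and 24 libraries in all. The labels do not state that each library came from its own animal, so p-values measure the spread between libraries.

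NAD+ is both a carrier of electrons and a substrate that is cut by signalling enzymes. Liver makes it from tryptophan, from nicotinic acid, from nicotinamide riboside and, by the salvage route, from the nicotinamide that NAD+-consuming enzymes release. NAMPT catalyses the rate-limiting step of that salvage, and sirtuins, which remove acyl groups from proteins, and PARPs, which build ADP-ribose chains, are the main consumers. *Nampt* is known as a gene bound and driven by CLOCK and BMAL1 at E-boxes, which is why the pathway is often studied beside the clock.

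RNA of the targeted gene separated the genotypes as the labels state. In WT liver *Arntl* fell from 12.9 FPKM (mean of 12.6 and 13.2) at CT2 to 0.143 (0.195 and 0.0919) at CT10, whereas the 12 ΔRRE libraries lay between 2.096 and 4.21. The fitted 24 h wave of *Arntl* had an amplitude of 2.57 on the log2 scale in WT and 0.29 in ΔRRE, and the difference passed the test across all genes (limma, adjusted p = 0.0463; exact permutation over 23328 divisions, p = 4.29e-05, the smallest they can give). No gene was called for a difference in rhythm by limma with the replicate number as a block (351 at an unadjusted p under 0.05) or without 3 ΔRRE libraries high in acute-phase genes (459), which are described with *Nnmt*. Summed FPKM per library ran from 554170 to 624746, and the read depth behind the values is not used here. The 5 hepatocyte markers summed to between 31319 and 49053 FPKM in the 24 libraries, whereas the 3 skeletal muscle markers stayed at or below 0.136 and the 3 adipocyte markers at or below 3.17. Markers of Kupffer cells, the resident macrophages of liver, summed to a median of 39.0 in WT (at most 94.9) and 36.5 in ΔRRE (at most 64.3). Bulk RNA cannot tell fewer cells of a type from less RNA per cell.

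The promoter letters of the genes are shown because the deleted element and the E-box are the elements the mutant line is about. Windows from 250 bases before to 50 bases after the annotated start (RefSeq, build GRCm38.p6) were matched for 8 of the 10 genes, all but *Naprt* and *Nnmt*, and searched on both strands for the E-box CACGTG, the E-box-like CACGTT, the RRE core AGGTCA and the D-box TTATGTAA. Of 32851 such windows over all genes, 7.15% held CACGTG, 4.68% CACGTT, 16.3% AGGTCA and 0.938% TTATGTAA. The 5 matches are written 5′ to 3′ on the strand of the gene, with the matched motif in capitals and 10 bases on each side. In order they lie at chr12:32820174-32820199 (plus strand, position -151 from the start), chr9:98296583-98296608 (plus strand, position 23), chr10:63339135-63339160 and chr10:63339063-63339088 (minus strand, positions -115 and -43), and chr1:180568832-180568857 (plus strand, position -49).
Nampt, RRE core: gcaggcgcccAGGTCAcgcgctgggg
Nmnat3, RRE core: tgggagcgcaAGGTCAagttcactcg
Sirt1, distal E-box: ggcgcccggcCACGTGacccggcgtg
Sirt1, proximal E-box: aggggcgggtCACGTGacggggttta
Parp1, E-box: ctcccaaggaCACGTGctgaagcccc
The matches are descriptions of letters in a short window, with no measure of binding. The core AGGTCA is only the end of the longer RRE that the paper describes. That element has T just before the core, whereas the *Nampt* match has c there and the *Nmnat3* match has a. Neither match is therefore the full RRE. The windows of *Nmnat1*, *Nmrk1*, *Sirt3* and *Sirt6* held none of the 4 motifs, and that of *Nampt* held no CACGTG. *Nampt*, *Nmnat3*, *Sirt1* and *Parp1* had 1 window each, and bases outside the windows were not searched. The RefSeq starts used here differ from the ends of the GENCODE M21 gene spans given below, so positions do not count from those ends.

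The levels of the 10 genes spanned from 1.09 FPKM in the lowest library of *Sirt6* to 445 in the highest of *Nnmt*, in a unit scaled by transcript length. *Nnmt* had the highest mean, at 136 ± 80.0 FPKM (SD, n = 24 libraries). *Naprt* at 44.2 ± 4.10 and *Sirt3* at 42.8 ± 4.71 followed and overlapped, *Naprt* being the higher in 15 of 24 libraries. *Nampt* at 15.4 ± 8.15 and *Nmrk1* at 15.2 ± 5.75 also overlapped, and *Nampt* was the higher in only 7 of 24 libraries despite its larger mean. *Parp1* at 10.0 ± 1.18 lay above *Nmnat1* at 8.07 ± 1.01 in all 24 libraries. *Nmnat3* at 3.18 ± 1.14 and *Sirt1* at 3.02 ± 0.411 overlapped, with *Nmnat3* the higher in 15 of 24, and *Sirt6* was lowest at 1.77 ± 0.389.

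**Figure D1:**
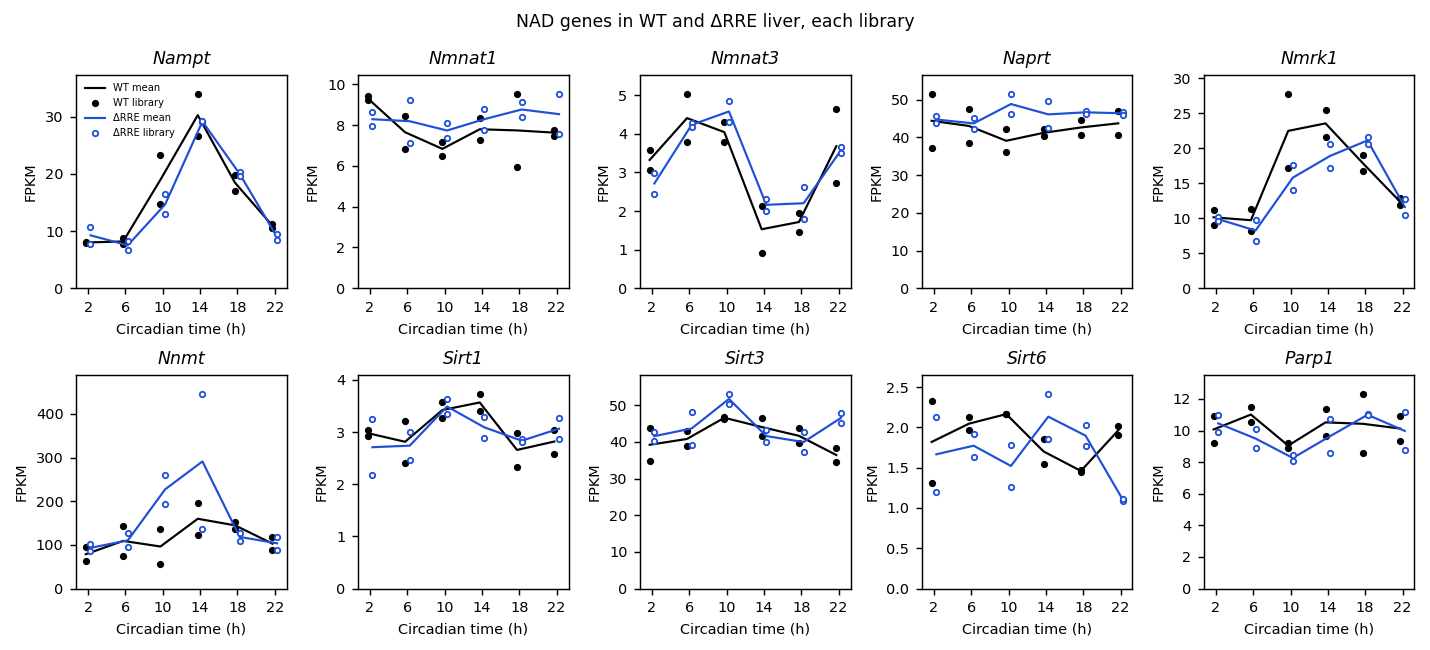
Expression of the 10 NAD genes, in FPKM, against circadian time in hours. Points are single libraries, 2 per genotype and time point, and lines join the means of WT (black) and ΔRRE (blue). *Nampt* and *Nmrk1* stood between 12.9 and 34.0 FPKM at CT10 to CT18 in both genotypes, *Nmnat3* was lowest at CT14 and CT18, and the highest *Nnmt* value, 445, was 1 ΔRRE library at CT14.

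Of the 10 genes, 4 were rhythmic when a 24 h wave common to both genotypes was fitted to all libraries: *Nampt*, *Nmrk1*, *Nmnat3* and *Nnmt* (limma, adjusted p under 0.05 over the genes tested). That is 4 of 10 beside 30.6% of all 11244 genes. Within a single genotype, *Nampt* and *Nmrk1* passed the test in WT (2 of 10, beside 10.3% of all genes) and the same 2 genes passed it in ΔRRE (2 of 10, beside 4.57%). The other 6, *Nmnat1*, *Naprt*, *Sirt1*, *Sirt3*, *Sirt6* and *Parp1*, passed in none of these tests. The median amplitude of the 10 genes in the common wave was 0.14 on the log2 scale, against 0.17 over all genes tested, so most of them varied little over the day. Rhythm was also called by looser criteria, namely a harmonic p under 0.3, a highest mean at least 1.5 times the lowest, and no SD of a time point above 1.5 times the distance between them. By these the same 4 genes were rhythmic in WT (4 of 10, beside 37% of all genes) and in ΔRRE (4 of 10, beside 35.4%).

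*Nampt*, the rate-limiting enzyme of nicotinamide salvage, had the largest wave of the 10. In WT its libraries read 7.87 and 8.14 FPKM at CT2, 8.70 and 7.66 at CT6, 14.7 and 23.2 at CT10, 34.0 and 26.6 at CT14, 17.1 and 19.8 at CT18, and 10.6 and 11.3 at CT22. In ΔRRE they read 10.8 and 7.72 at CT2, 8.32 and 6.71 at CT6, 12.9 and 16.4 at CT10, 29.1 and 29.2 at CT14, 20.3 and 19.7 at CT18, and 8.49 and 9.43 at CT22. Both genotypes were low from CT22 to CT6 and highest at CT14, and no library of either genotype at CT14 overlapped one at another time point. The ratio of the highest to the lowest time-point mean was 3.78 in WT and 3.88 in ΔRRE.

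The fitted amplitude of *Nampt* was 0.96 ± 0.10 (SE, log2) in WT, with a peak at 14.5 h (limma, adjusted p = 0.000412). In ΔRRE it was 0.93 ± 0.12 with a peak at 14.8 h (adjusted p = 0.00284). The amplitude differed by -0.03 ± 0.15 (SE) and the peak by 0.378 ± 0.610 h (SE), ΔRRE minus WT. The 2 waves together showed no difference that passed the test (limma, unadjusted p = 0.822; exact permutation, p = 0.767). The wave common to both peaked at 14.7 ± 0.305 h with an amplitude of 0.94 ± 0.08 (adjusted p = 2.14e-08). That peak came 6.86 ± 0.394 h after the one of *Nr1d1*, which encodes the RRE-binding repressor REV-ERBα, and 3.78 ± 0.429 h after the one of *Dbp*, a direct target of CLOCK and BMAL1.

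*Nmrk1*, a kinase that phosphorylates nicotinamide riboside to the same product that NAMPT makes, moved with *Nampt*. WT libraries read 9.04 and 11.2 FPKM at CT2, 8.12 and 11.3 at CT6, 17.2 and 27.8 at CT10, 25.5 and 21.6 at CT14, 19.0 and 16.8 at CT18, and 11.8 and 12.9 at CT22. The ΔRRE libraries read 10.2 and 9.57, 9.78 and 6.72, 14.0 and 17.6, 20.7 and 17.2, 20.6 and 21.7, and 10.4 and 12.8 at the same times in order. In both genotypes CT10, CT14 and CT18 were above every library of CT2, CT6 and CT22. The highest mean stood at CT14 in WT (23.6 ± 2.78, SD, n = 2) and at CT18 in ΔRRE (21.1 ± 0.733).

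The amplitude of *Nmrk1* was 0.69 in WT with a peak at 14.1 h (limma, adjusted p = 0.00518), and 0.67 in ΔRRE with a peak at 15.6 h (adjusted p = 0.00584). The later peak in ΔRRE, by 1.47 ± 0.809 h (SE), did not separate from the spread (limma, unadjusted p = 0.239 for the difference in wave; exact permutation, p = 0.22). In the wave common to both genotypes *Nmrk1* peaked within 0.175 ± 0.532 h of *Nampt*. Over the 24 libraries the log2 values of *Nmrk1* correlated with those of *Nampt* at r = 0.914. That made *Nampt* the gene closest to *Nmrk1* among the genes tested, with unnamed predicted genes skipped. These points share libraries and time of day, so the value describes likeness of profile.

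*Nmnat3*, usually described as the mitochondrial member of the NMNAT family, was lowest at CT14, where *Nampt* was highest, but was near its own highest at CT10, where *Nampt* had already risen (r = -0.65 over 24 libraries, as a description). Its WT libraries read 3.58 and 3.07 FPKM at CT2, 3.78 and 5.03 at CT6, 4.31 and 3.78 at CT10, 0.917 and 2.14 at CT14, 1.96 and 1.47 at CT18, and 2.73 and 4.64 at CT22. The ΔRRE libraries read 2.99 and 2.44, 4.29 and 4.18, 4.85 and 4.31, 2.31 and 2.01, 2.61 and 1.79, and 3.65 and 3.50 in the same order. Both genotypes were highest at CT6 and CT10 and dropped between CT10 and CT14, where the 4 libraries of CT14 (0.917 to 2.31) lay below the 4 of CT10 (3.78 to 4.85).

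The common wave of *Nmnat3* had an amplitude of 0.56 and a peak at 5.04 h (limma, adjusted p = 0.00465), 9.62 ± 0.895 h before that of *Nampt*. Within WT alone the amplitude was 0.72 (adjusted p = 0.0572) and within ΔRRE 0.42 (adjusted p = 0.190), neither past the threshold. The difference in wave between the genotypes gave an unadjusted p of 0.310 with limma and 0.0937 in the exact permutation test. *Nmnat1*, the nuclear enzyme that completes NAD+ synthesis, stayed between 5.96 and 9.53 FPKM in all 24 libraries (common wave 0.08, adjusted p = 0.450).

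**Figure D2:**
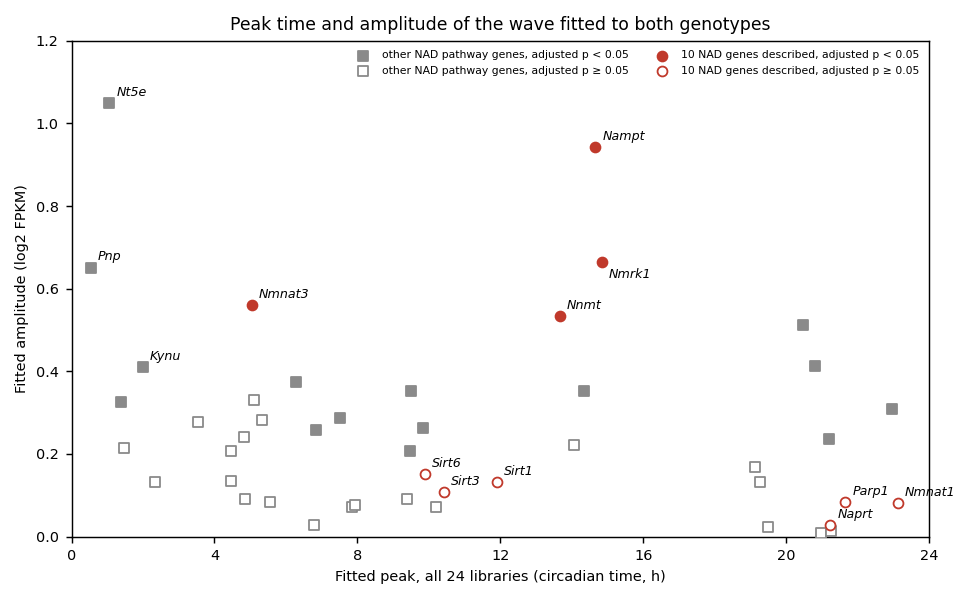
Amplitude (log2 FPKM) against peak time (circadian hours) of the wave fitted to all 24 libraries. Circles are the 10 NAD genes, squares the 36 other NAD pathway genes tested, and filled symbols passed the rhythm test at an adjusted p under 0.05. *Nampt*, *Nmrk1* and *Nnmt* peak between 13.7 and 14.8 h, *Nmnat3* at 5.04 h, and *Pnp*, *Kynu* and *Nt5e* between 0.535 and 1.99 h.

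*Nnmt* encodes the methyltransferase that converts nicotinamide to methylnicotinamide and so takes it out of salvage. Its coefficient of variation was 65.8% over the ΔRRE libraries and 35.8% over the WT libraries, against 54.0% and 54.2% for *Nampt*. In WT it read 94.6 and 62.6 FPKM at CT2, 144 and 74.5 at CT6, 57.0 and 136 at CT10, 123 and 196 at CT14, 153 and 137 at CT18, and 117 and 88.3 at CT22. In ΔRRE it read 101 and 85.2 at CT2, 94.1 and 126 at CT6, 261 and 194 at CT10, 445 and 137 at CT14, 126 and 110.0 at CT18, and 119 and 88.3 at CT22. Replicates differed most at CT14 in ΔRRE, where the mean was 291 ± 218 (SD, n = 2).

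The wave of *Nnmt* common to both genotypes passed the test, with an amplitude of 0.53 and a peak at 13.7 h (limma, adjusted p = 0.0162). Neither genotype passed alone. The amplitude was 0.43 in WT with a peak at 15.8 h (limma, adjusted p = 0.232), and 0.74 in ΔRRE with a peak at 12.4 h (adjusted p = 0.0640). The difference in wave between the genotypes did not pass (limma, unadjusted p = 0.115, and exact permutation, p = 0.225). At CT10 *Nnmt* was higher in ΔRRE by 1.35 on the log2 scale (limma, unadjusted p = 0.0117). That difference did not survive adjustment over all genes (adjusted p = 0.556).

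Acute-phase genes, which liver induces in inflammation, moved with *Nnmt* in 3 libraries. Summed over 19 such genes, WT libraries ran from 7822 to 14603 FPKM (median 10532) and ΔRRE libraries from 8454 to 27889 (median 13191). The 3 highest sums were 27889 in ΔRRE CT14 replicate 1, 25880 in ΔRRE CT10 replicate 1 and 19890 in ΔRRE CT10 replicate 2, and these libraries held ranks 1, 2 and 4 of 24 for *Nnmt*. In them *Saa1*, a serum amyloid gene, read 1069, 916 and 533 FPKM and *Lcn2*, which encodes lipocalin 2, read 205, 79.4 and 87.1. *Saa1* was also above 533 in ΔRRE CT6 replicate 2 (626) and ΔRRE CT22 replicate 1 (552), where *Nnmt* was 126 and 119 FPKM. The library at rank 3 for *Nnmt*, WT CT14 replicate 2 at 196 FPKM, was at rank 12 of 24 for the acute-phase sum. Conversely, the libraries at ranks 4, 5 and 6 for that sum held ranks 18, 13 and 23 for *Nnmt*.

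Without those 3 libraries the common wave of *Nnmt* no longer passed (amplitude 0.33, limma adjusted p = 0.0892), and its mean difference between genotypes went from 0.35 to -0.012 on the log2 scale. The 3 libraries were picked after the values were seen and include both of ΔRRE at CT10, where the *Nnmt* difference was largest. A smaller difference was therefore partly fixed by the choice. The common rhythm of *Nnmt* also did not pass when time was a factor of 6 points instead of a wave (limma, adjusted p = 0.110). The calls of *Nampt*, *Nmrk1* and *Nmnat3* held without the 3 libraries (adjusted p of the common wave 5.45e-07, 4.41e-05 and 0.0105). Cell type markers differed among these libraries, not all in 1 direction. ΔRRE CT14 replicate 1 had the highest sum of 3 neutrophil markers, 13.5 FPKM against at most 6.51 in WT, and rank 2 of 24 for stellate cell markers. ΔRRE CT10 replicates 1 and 2 held ranks 6 and 11 for neutrophil markers and ranks 20 and 23 for stellate cell markers. For the 3 libraries in that order, Kupffer cell ranks were 7, 14 and 21, and cholangiocyte ranks 21, 24 and 1. In the same order the 3 libraries held ranks 21, 19 and 23 of 24 for hepatocyte markers, and ranks 10, 15 and 13 for lymphocyte markers. The part of the acute-phase genes and of these markers in the *Nnmt* values was not tested.

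**Figure D3:**
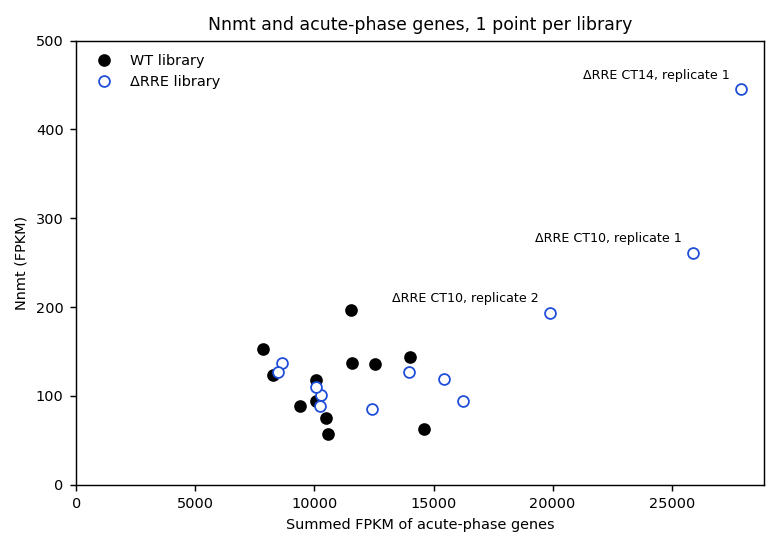
*Nnmt* (FPKM) against the summed FPKM of 19 acute-phase genes, 1 point per library, filled for WT and open for ΔRRE. The 3 named ΔRRE libraries, at sums of 19890 to 27889, stand to the right of the other 21, whose sums are at most 16232 and whose *Nnmt* values are at most 196.

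*Naprt*, which starts NAD+ synthesis from nicotinic acid, was flat over time. WT libraries ran from 36.1 to 51.5 FPKM with a median of 41.3, and ΔRRE libraries from 42.2 to 51.4 with a median of 46.1. Its common wave had an amplitude of 0.03 (limma, adjusted p = 0.848), the smallest of the 10. Its exons share 277 of 2344 bases with *Eef1d* on the same strand, and how the authors' counting divided fragments between them is not given in the sources used here.

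*Sirt1*, *Sirt3* and *Sirt6* were measured at a wide span of levels and none of these 3 passed the rhythm test. *Sirt1*, the nuclear deacetylase most often tied to the clock, lay between 2.17 and 3.72 FPKM in all 24 libraries (common wave 0.13, peak 11.9 h, limma adjusted p = 0.190). *Sirt3*, the main mitochondrial deacetylase, lay between 34.6 and 53.0 (common wave 0.11, adjusted p = 0.129). In WT alone its wave gave an unadjusted limma p of 0.0449 and an adjusted p of 0.170. *Sirt6*, a chromatin deacetylase, lay between 1.09 and 2.41 (common wave 0.15, adjusted p = 0.409). Exons of *Sirt3* share 418 bases with *Ric8a* and 342 with *Psmd13*, both on the opposite strand, of 5973 in all, and whether the counting used strand is not given.

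Single time points set 2 of the sirtuins apart before adjustment. At CT22 *Sirt3* read 38.3 and 34.6 FPKM in WT and 45.1 and 48.0 in ΔRRE, a log2 difference of 0.35 (limma, unadjusted p = 0.0212, adjusted p = 0.998). At CT22 *Sirt6* read 1.91 and 2.02 in WT and 1.09 and 1.11 in ΔRRE, a log2 difference of -0.78 (limma, unadjusted p = 0.0166, adjusted p = 0.961). Neither passed over all genes. *Sirt6* had the opposite sign at CT18, with 1.48 and 1.44 FPKM in WT and 2.02 and 1.77 in ΔRRE. That log2 difference was 0.35 (limma, unadjusted p = 0.243).

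*Parp1*, the major poly(ADP-ribose) polymerase, passed no rhythm test. WT libraries ran from 8.56 to 12.3 FPKM and ΔRRE libraries from 8.06 to 11.2, and the ranges overlapped. The common wave was 0.08 (limma, adjusted p = 0.388).

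No gene of the 10 passed the test of a difference in rhythm between the genotypes (limma, 0 of 10 at an adjusted p under 0.05 and 0 at an unadjusted p under 0.05). Over all genes 1 of 11244 was called, *Arntl*, or 0.00889%, and 2.84% had an unadjusted p under 0.05. The smallest unadjusted p of the 10 was 0.115, for *Nnmt*. The median size of the difference in wave was 0.12 on the log2 scale for the 10 genes and 0.16 for all genes tested.

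The test of mean level over the 6 time points called none of them either (limma, 0 of 10 called, beside 0% of all genes). In ΔRRE 5 were higher and 5 lower, and the median difference was 0.03 on the log2 scale against 0.04 over all genes tested. *Naprt* had the only unadjusted p under 0.05, with a log2 difference of 0.13 ± 0.06 (SE, 95% interval 0.00489 to 0.25, unadjusted p = 0.0422, adjusted p = 0.537; exact permutation, p = 0.0367). Over all genes 8.91% had an unadjusted p under 0.05, and 7.16% were also higher in ΔRRE. After libraries were rescaled by the median of ratios the *Naprt* difference was 0.09 (limma, unadjusted p = 0.167), and without the 3 libraries highest in acute-phase genes it was 0.07 (limma, unadjusted p = 0.309).

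The intervals show what size of level difference these libraries leave. For *Nampt* the difference was -0.08 with a 95% interval of -0.26 to 0.10, and for *Nmrk1* -0.15 with an interval of -0.35 to 0.05. The interval of *Sirt1* ran from -0.19 to 0.14, that of *Sirt3* from -0.03 to 0.21, and that of *Parp1* from -0.20 to 0.08. *Nnmt* had the widest, from -0.08 to 0.78 around 0.35. *Sirt6* (-0.44 to 0.13), *Nmnat3* (-0.14 to 0.39) and *Nmnat1* (-0.06 to 0.25) lay between.

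**Figure D4:**
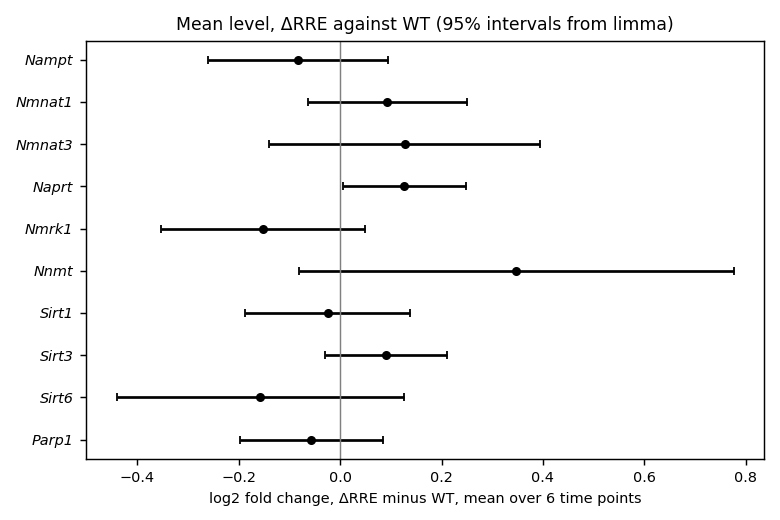
Difference in mean level between ΔRRE and WT (log2 fold change over 6 time points) for each of the 10 genes. Points are limma estimates from 12 libraries per genotype and bars are 95% intervals. The interval of *Naprt* starts at 0.00489 and the other 9 cross 0.

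At single time points 0 of the 60 pairs of gene and time point were called (limma, smallest adjusted p = 0.556). The share of all genes called was 0.00889% at CT2, 0% at CT6, 0.0178% at CT10, 0.0267% at CT14, 0.00889% at CT18 and 0% at CT22. An unadjusted p under 0.05 was met by 3 of the 60 pairs, or 5.0%, against 4.15% over all genes, namely *Nnmt* at CT10 and *Sirt3* and *Sirt6* at CT22. Over all genes that limit was met by 6.16% at CT10 and by 4.66% at CT22. Among pairs that came near, *Naprt* at CT10 stood at 36.1 and 42.1 FPKM in WT and 51.4 and 46.3 in ΔRRE (unadjusted p = 0.0531). *Nmrk1* at CT10 had the opposite sign, with means of 22.5 in WT and 15.8 in ΔRRE whose libraries overlap (unadjusted p = 0.0596).

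The genes most like each member were taken by Pearson's r of log2 values over 24 libraries, as a description. The search covered the genes tested, with unnamed predicted genes skipped. For *Nampt* they were *Homer2* (0.949), *Esrra*, which encodes the nuclear receptor ERRα (0.933), *Gde1* (0.930), *Pdxk*, the kinase of vitamin B6 (0.929), and *Fam102a* (0.915), all with fitted peaks between 14.2 and 15.5 h. *Pdxk* was also the second closest to *Nmrk1* (0.902). *Nmnat3* lay closest to *Inca1* (0.894) and *Cebpe* (0.882), with peaks at 5.38 and 5.51 h. For *Nnmt* the closest were *Dap* (0.846) and *Fh1* (0.845), the fumarase of the citric acid cycle.

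For the genes that passed no rhythm test the closest profile had an r of 0.648 to 0.829. *Sirt1* was closest to *Atp6v1c1* (0.829) and *Slc25a32* (0.743), and *Sirt3* to *Slc25a47* (0.821) and *Lpin2* (0.798). *Parp1* was closest to *Mapk1ip1l* (0.779) and *Gfm1* (0.777), *Naprt* to *Tmem160* (0.778) and *Agt* (0.765), and *Nmnat1* to *Snx3* (0.772) and *Pofut1* (0.761). *Sirt6*, the gene with the lowest level, had the lowest values, with *Gpt* (0.648) and *Trim3* (0.622).

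The rest of the pathway was read from a list of 40 further genes, of which 36 were tested. *Nmnat2*, *Nmrk2*, *Bst1* and *Sarm1* had means under 1 FPKM. The common wave passed for 15 of 36, or 41.7%, beside 30.6% of all genes, with 7 passing in the test within WT (beside 10.3% of all genes) and 4 in that within ΔRRE (beside 4.57%), and 0 were called for a difference in rhythm or in level (limma). By role, 5 of 9 genes of synthesis from tryptophan passed, 1 of 1 salvage gene tested, 2 of 4 other sirtuins, 4 of 11 other PARPs, 1 of 2 genes of nicotinamide oxidation, and 2 of 5 genes of NAD+ transport, repair and cleavage. The 3 genes of NADP formation and reduction and the 1 glycohydrolase tested did not pass.

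Several of these genes peaked nearly opposite to *Nampt*. *Pnp*, which splits nicotinamide riboside, peaked at 0.535 h with an amplitude of 0.65 (limma, adjusted p = 8.40e-08). Its WT means ran from 38.0 FPKM at CT2 to 15.3 at CT14 and its ΔRRE means from 40.2 to 19.2 at the same times. The shortest distance of its peak from that of *Nampt* was 9.88 ± 0.456 h. *Nt5e*, an ectoenzyme that removes the phosphate of nicotinamide mononucleotide, peaked at 1.06 h with an amplitude of 1.05 (adjusted p = 0.000115), at low levels of 0.330 to 4.29 FPKM. *Kynu*, the kynureninase of synthesis from tryptophan, peaked at 1.99 h with an amplitude of 0.41 (adjusted p = 8.55e-06), 11.3 ± 0.558 h from *Nampt*.

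*Kynu* also had the only unadjusted p under 0.05 for mean level among the 36, at 0.25 ± 0.06 higher in ΔRRE on the log2 scale (limma, unadjusted p = 0.000683, adjusted p = 0.332). For a difference in rhythm *Slc25a51* had an unadjusted p under 0.05, as had 2.84% of all genes (limma, unadjusted p = 0.0190, adjusted p = 0.9999). Its peak was at 17.5 h in WT (limma, adjusted p = 0.273) and at 12.9 h in ΔRRE (adjusted p = 0.0389). *Ido2*, an enzyme of the first step from tryptophan, peaked at 23.0 h (amplitude 0.31, adjusted p = 0.00235). *Sirt5*, the mitochondrial desuccinylase, peaked at 6.83 h (amplitude 0.26, adjusted p = 0.00257), with means between 6.70 and 9.85 FPKM. Among the other PARPs, *Parp16* peaked at 20.8 h (amplitude 0.41, adjusted p = 0.000153), *Parp12* at 6.28 h (0.37, 0.000215) and *Parp10* at 9.51 h (0.35, 0.00125). Peaks of the pathway therefore fell over most of the day. In the common wave *Nampt*, *Nmrk1* and *Nnmt* were close to each other, and *Slc25a51* peaked near them at 14.3 h (limma, adjusted p = 0.0247). The peaks of *Nnmt* within each genotype lay further apart, and neither wave passed alone.

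The genes lie on different chromosomes of GRCm38, apart from *Nmnat3* and *Nnmt* on chromosome 9 and *Sirt1* and *Sirt6* on chromosome 10. The spans are those of whole genes in GENCODE M21. *Nampt* spans chr12:32819545-32853349 on the plus strand and *Nmrk1* chr19:18631950-18652428 on the plus strand. *Nmnat3* spans chr9:98287435-98420438 (plus) and *Nnmt* chr9:48591877-48605153 (minus). *Nmnat1* is at chr4:149467572-149485202 (minus), *Naprt* at chr15:75890956-75894481 (minus) and *Parp1* at chr1:180568924-180601254 (plus). The sirtuins are at chr10:63319005-63381704 for *Sirt1*, chr7:140863666-140882309 for *Sirt3* and chr10:81621785-81627797 for *Sirt6*, all on the minus strand.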

How the data were processed

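Poly(A) RNA of liver was made into 24 directional libraries and sequenced as paired reads. The submitters' processing notes name Trimmomatic 0.39, HISAT2 2.1.0, StringTie 1.3.5 and build mm10. The authors deposited 1 FPKM value per gene and library, normalized for transcript length and library total, so fragment counts and counting error are unknown. 

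Values were analysed as log2(FPKM + 0.1) where a gene averaged 1 FPKM or more, which lowers fold changes of weak genes, with limma 3.58.1 (R 4.3.3), an intensity trend and Benjamini-Hochberg adjustment over all 11244 genes (limit 0.05). Rhythm was an F-test of a cosine and sine of period 24 h, within each genotype, in common, and as a genotype interaction. Mean levels were compared with time as a factor, and single time points in a model of 12 group means, which pools the spread. Exact two-sided permutation tests regrouped the 4 libraries within each time point, 2 against 2, in every possible way. The study's rhythm caller, BIO_CYCLE, was not used here; the looser rhythm criteria are those of its methods with the harmonic p in its place. Of 54733 gene IDs, 54528 matched GENCODE M21. The limma tests of mean level, common rhythm and difference in rhythm were tested on simulated data. The genes were chosen by name, and they, the lists and the alternatives were chosen with earlier results of these data known. All 10 genes are named, with up to 8 other pathway genes past a test by smallest p, *Arntl*, *Nr1d1*, *Dbp* and the nearest profiles by r (unnamed predicted genes skipped). *Saa1*, *Lcn2* and *Slc25a51* were chosen after their values were seen.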

Additional observations from a re-analysis of the deposited data

Results flagged for a closer look

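The rhythm of *Arntl* differed between WT and ΔRRE by a test of the difference itself (limma, genotype by wave interaction, adjusted p = 0.0463). Its amplitude was 2.57 in WT and 0.29 in ΔRRE on the log2 scale. Its mean log2 level differed by -0.01, with a wide limma interval from -0.84 to 0.82. In FPKM the mean over 12 libraries was 5.67 in WT and 3.06 in ΔRRE. The log2 value therefore does not show that the level was unchanged. With the replicate number as a block, or without the 3 libraries highest in acute-phase genes, 0 genes were called for a difference in rhythm.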

How the results depend on the processing

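Under the criteria of the study, with the harmonic p under 0.3 in place of the BIO_CYCLE p, WT and ΔRRE each had 4 rhythmic genes of the 10. Without the 3 libraries highest in acute-phase genes, an alternative chosen after seeing the data, the log2 difference of *Nnmt* was -0.012 and its common amplitude 0.33 (limma, adjusted p = 0.0892). The CT10 contrast could not be made without them, and the cause was not tested. With time as a factor or a minimum mean of 5 FPKM, 3 genes had a common rhythm, since *Nnmt* (adjusted p = 0.110) was lost in the first and *Nmnat3* untested in the second. Leaving out each library in turn gave 2 to 3 genes rhythmic in WT, 2 to 3 in ΔRRE, 4 in common and 0 for each difference between genotypes. The third gene was *Nmnat3* without WT CT22 replicate 2 (adjusted p = 0.0343) and *Nnmt* without ΔRRE CT14 replicate 2 (adjusted p = 0.0391). The difference of *Sirt1* ran from -0.051 to 0.016, positive without ΔRRE CT2 replicate 2. The labels do not say that replicate numbers pair libraries across genotypes. The correlation of deviations between genotypes, over all genes tested, was -0.119 to 0.206 by time point, which does not settle it. A replicate block called the same numbers of genes except 3 in ΔRRE, *Nnmt* being added (amplitude 0.74, adjusted p = 0.0484). The read depth is unknown, so no counting error could be given.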
